A study of Mus musculus with 25 samples.

Results

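Matrix metalloproteinases and their inhibitors were examined in macrophages and fibroblasts sorted from mouse lung and skin. The set was given by gene symbol and holds 9 genes, the proteases Mmp2, Mmp3, Mmp12, Mmp14 and Mmp19 and the inhibitors Timp1, Timp2, Timp3 and Reck. All 9 were present in both deposited tables, as 9 of 11867 genes in lung and 9 of 12661 genes in skin, and all 9 passed the filter on low values in every comparison. In lung this filter removed no gene, as even a gene at 0 reads lies above it. Passing it therefore does not show that a gene was detected in lung.

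Bulk RNA-seq libraries came from C57BL/6 mice of 2 genotypes, and the comparison of the genotypes asks what a lack of neutrophils changes in these cells. The depleted groups carry Mrp8_CRE; Rosa26_DTR, a Cre recombinase under the Mrp8 (S100a8) promoter, which is active chiefly in neutrophils, together with a diphtheria toxin receptor allele. The control groups carry Mrp8_WT; Rosa26_DTR, so they hold the receptor allele without Cre. Both genotypes were given the toxin itself, 10 µg per kg over 7 days, and no group was left without it. Lung gave 3 libraries for each of depleted and control macrophages and fibroblasts, and skin gave 3 depleted and 3 control fibroblast, 4 depleted and 3 control macrophage libraries. Lung macrophages were gated as interstitial cells (CD45+, CD68+, F4/80+, CD11c-, CD11b high) and skin macrophages as CD45+, CD11b+, CD68+ and F4/80+ cells. Fibroblasts were gated as PDGFRA+ cells without CD45, CD31 or EPCAM, with CD90.1 as a further gate in skin. The sources used here state neither age nor sex of the mice. Nothing in the labels says that the libraries of a group came from separate animals, so p-values measure the spread between these libraries, which may be technical.

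Matrix metalloproteinases are zinc enzymes made as inactive precursors that cut collagens, elastin, proteoglycans and signalling proteins outside the cell. Tissue inhibitors of metalloproteinases (TIMPs) block the active site of the mature enzymes, and RECK is an inhibitor tethered to the cell membrane by a lipid anchor. In lung and skin, fibroblasts are known as a main source of the collagen network and of the enzymes that remodel it, and macrophages as a source of metalloelastase.

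The deposited values are a normalised signal on a linear scale, in which each library's lowest value corresponds to 0 reads. Lung libraries held 124075 to 385925 estimated reads and 1 read was worth 3.0 to 6.81 signal units, while skin libraries held 6553115 to 27259903 reads and 1 read was worth 0.0371 to 0.162 units. A lung signal of 10 therefore rests on 1 to 3 reads, and weak genes can be compared far less well in lung than in skin. The 2 organs were normalised separately, so no test was made between them. Fibroblast markers took 6.24 to 11.9% of the signal in skin fibroblasts and 0.0931 to 0.225% in the 5 skin macrophage libraries used. In the skin control macrophage libraries 1 and 5 they took 9.42 and 11.8%, and macrophage markers took 0.00589 and 0.00652% against 2.65 to 3.55% in the other 5. Those 2 libraries go against their cell type label and are kept apart below, which leaves 1 skin control macrophage library (replicate 3). The title of library 5 reads MFIBRO where those of the other macrophage libraries read MAC. Its macrophage label comes from the cell type field. In lung, fibroblast markers took 0.532 to 0.741% of the signal in fibroblasts and 0.0264 to 0.0409% in macrophages.

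**Figure D1:**
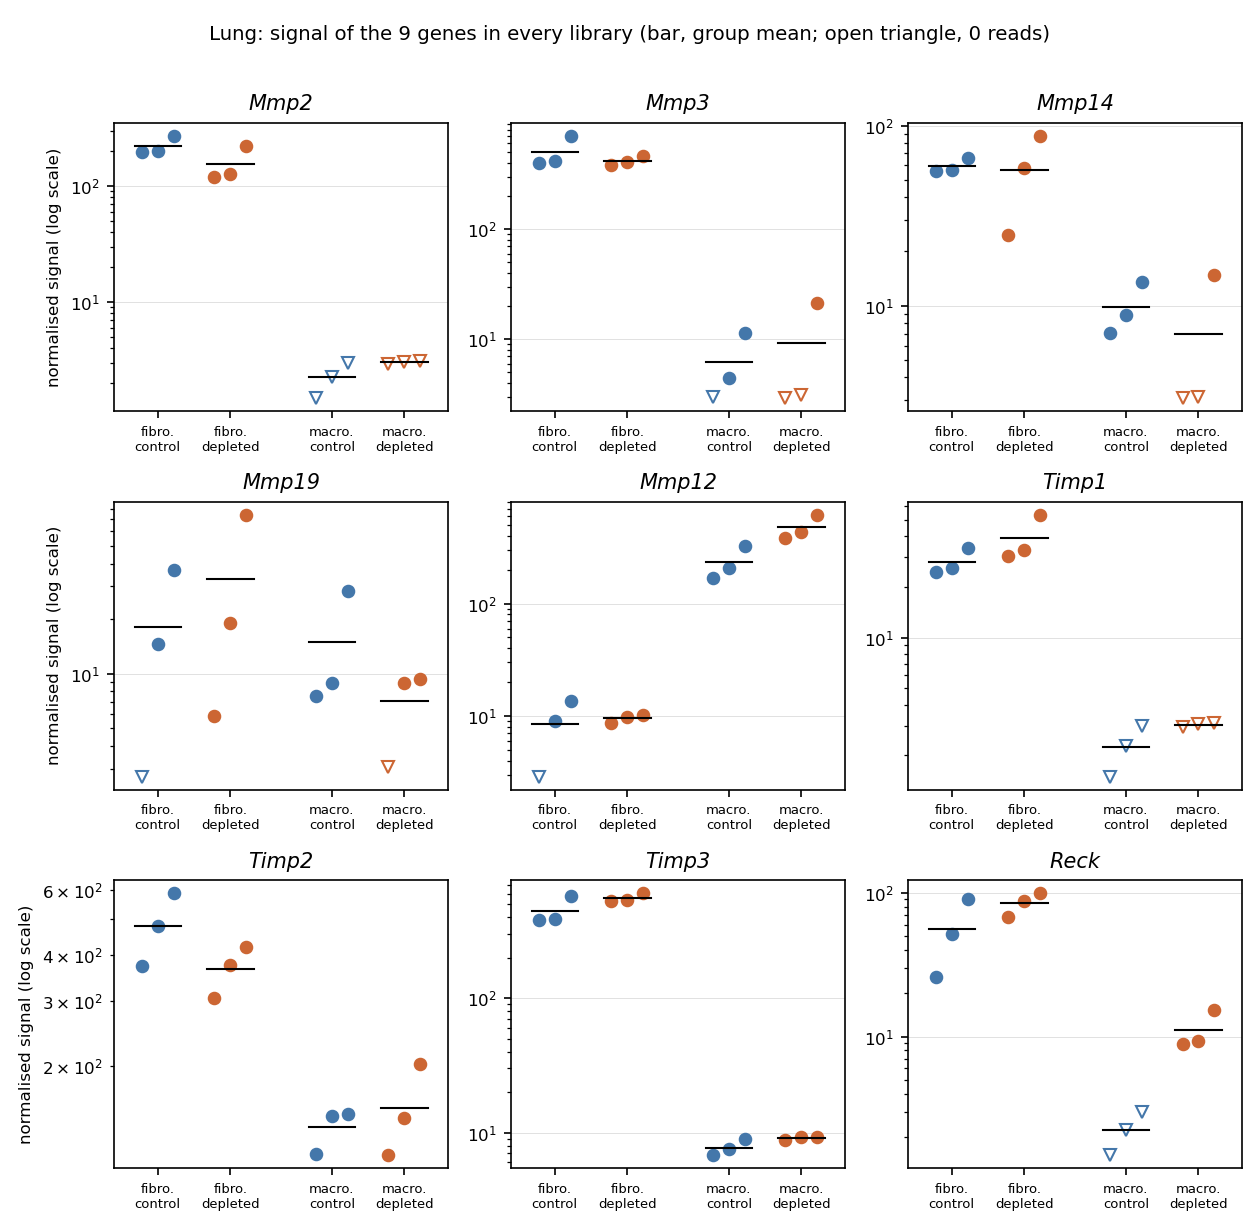
Normalised signal (log scale) of each of the 9 genes in the 12 lung libraries, with fibroblasts at the left and macrophages at the right of each panel, control libraries in blue and depleted ones in orange. Bars are group means and open triangles are libraries with 0 reads. Mmp12 is the gene with its high values in macrophages, and Mmp2 and Timp1 have 0 reads in all 6 macrophage libraries.

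In both organs most of the set was a fibroblast signature with a single macrophage gene. Fibroblasts were compared with macrophages over both genotypes, with 6 against 6 libraries in lung and 6 against 5 in skin, using limma on log2 signal with Benjamini-Hochberg adjustment over all genes and a threshold of 0.05. The fit weighs the genotypes equally, so the 1 skin control macrophage library counts as much as the 4 depleted ones together. Folds between means weigh every library alike, so a skin log2 difference and the fold beside it are different measures. Of the 9 genes, 8 passed in lung and 8 in skin, 7 of them higher in fibroblasts and Mmp12 lower, while Mmp19 passed in neither organ. Among all genes 36.6% passed in lung (18.1% higher and 18.5% lower in fibroblasts) and 27.7% in skin (14.8% higher and 13.0% lower). The median log2 difference of the 9 genes was 3.21 in lung, or 3.4 with genes at 0 reads set to their bound, and 3.54 in skin, beside 0.09 and 0.07 over all genes tested. The same 8 genes had groups whose values did not overlap, 7 of them higher in fibroblasts, as did 9.28% of all genes in lung and 11.2% in skin, and 1 lower, as did 10.2% and 11.3%.

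Mmp2 encodes gelatinase A, which cleaves denatured collagen and basement membrane collagen (ENSMUSG00000031740, GRCm38 chr8:92827291-92853420, plus strand). In lung control fibroblasts 1 to 3 its signal was 270.2, 199 and 198, and in depleted fibroblasts 1 to 3 it was 119, 220 and 126. All 6 lung macrophage libraries had 0 reads of Mmp2, against 247 reads over the 6 fibroblast libraries. Taking 3 reads over the macrophage group as the floor, the level in lung fibroblasts was at least 75.3-fold higher (adjusted p = 1.07e-13 by limma). In skin the signal was 2107, 3527 and 3193 in control fibroblasts 3 to 5 and 2435, 1731 and 2566 in depleted fibroblasts 2, 4 and 5. Skin macrophages had 74.7 in the control library and 78.9, 26.0, 44.1 and 24.0 in depleted libraries 1, 2, 3 and 5. Every fibroblast library was above every macrophage library, and the log2 difference was 5.53 ± 0.34 (SE; adjusted p = 1.73e-07 by limma), or 52.4-fold between the means.

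Mmp14 encodes the membrane-bound collagenase MT1-MMP, which is known to activate the MMP2 precursor at the cell surface together with TIMP2 (ENSMUSG00000000957, chr14:54431612-54445364, plus strand). Lung control fibroblasts had signals of 56.3, 56.2 and 66.4 and depleted ones 58.4, 87.4 and 24.7. Lung macrophages had 7.05, 13.5 and 8.91 in controls and 3.08, 3.10 and 14.7 in depleted libraries, which rest on 8.06 reads in all. The groups did not overlap and the means differed 6.94-fold (log2 2.76 ± 0.44, adjusted p = 8.46e-06 by limma). In skin fibroblasts the signal was 232, 528 and 589 in controls and 407, 235 and 456 in depleted libraries, and in macrophages it was 40.5 in the control and 4.25, 35.1, 26.7 and 66.1 in depleted libraries. Here the means differed 11.8-fold (log2 3.59 ± 0.63, adjusted p = 0.000896 by limma), with depleted macrophage library 1 far below the other 4.

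Mmp3 encodes stromelysin 1, which cuts proteoglycans, laminin and fibronectin and is known to activate other precursors of the family (ENSMUSG00000043613, chr9:7445822-7455975, plus strand). In lung fibroblasts its signal was 412, 702 and 398 in controls and 405, 383 and 461 in depleted libraries. Lung macrophages held 6 reads over 6 libraries, at signals of 11.3, 4.5 and 2.97 in controls and 21.5, 3.10 and 2.94 in depleted libraries. Its lung log2 difference was 6.04 ± 0.38 (adjusted p = 3.48e-14 by limma), or 59.6-fold between the means. By reads scaled by depth, the measure of the Mmp2 bound, lung macrophages stood at 1.1% of the fibroblast level. The fold of means is thus not comparable with that bound. Skin fibroblasts had 465, 514 and 517 in controls and 495, 175 and 296 in depleted libraries. Skin macrophages had 76.8 in the control and 55.4, 7.59, 10.8 and 5.78 in depleted libraries, so the control and depleted library 1 stood well above the other 3. The skin log2 difference was 3.54 ± 0.56 (adjusted p = 0.000415 by limma), or 13.1-fold between the means.

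Mmp12 encodes macrophage metalloelastase, known for cutting elastin (ENSMUSG00000049723, chr9:7344381-7369499, plus strand). Its signal in lung macrophages was 206, 329 and 169 in controls and 618, 382 and 433 in depleted libraries. Lung fibroblasts had 13.7, 2.89 and 8.95 in controls and 10.2, 9.72 and 8.67 in depleted libraries, or 9.03 reads in all. In skin macrophages the signal was 269 in the control and 450.5, 444, 438 and 457 in depleted libraries, a narrow range among the depleted libraries. Skin fibroblasts had 3.79, 1.88 and 2.81 in controls and 3.21, 2.15 and 1.79 in depleted libraries. Macrophage means were 39.5-fold higher in lung (log2 difference of fibroblasts minus macrophages -5.12 ± 0.32, adjusted p = 5.02e-14 by limma) and 158-fold higher in skin (-6.62 ± 0.34, adjusted p = 5.02e-08 by limma).

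**Figure D2:**
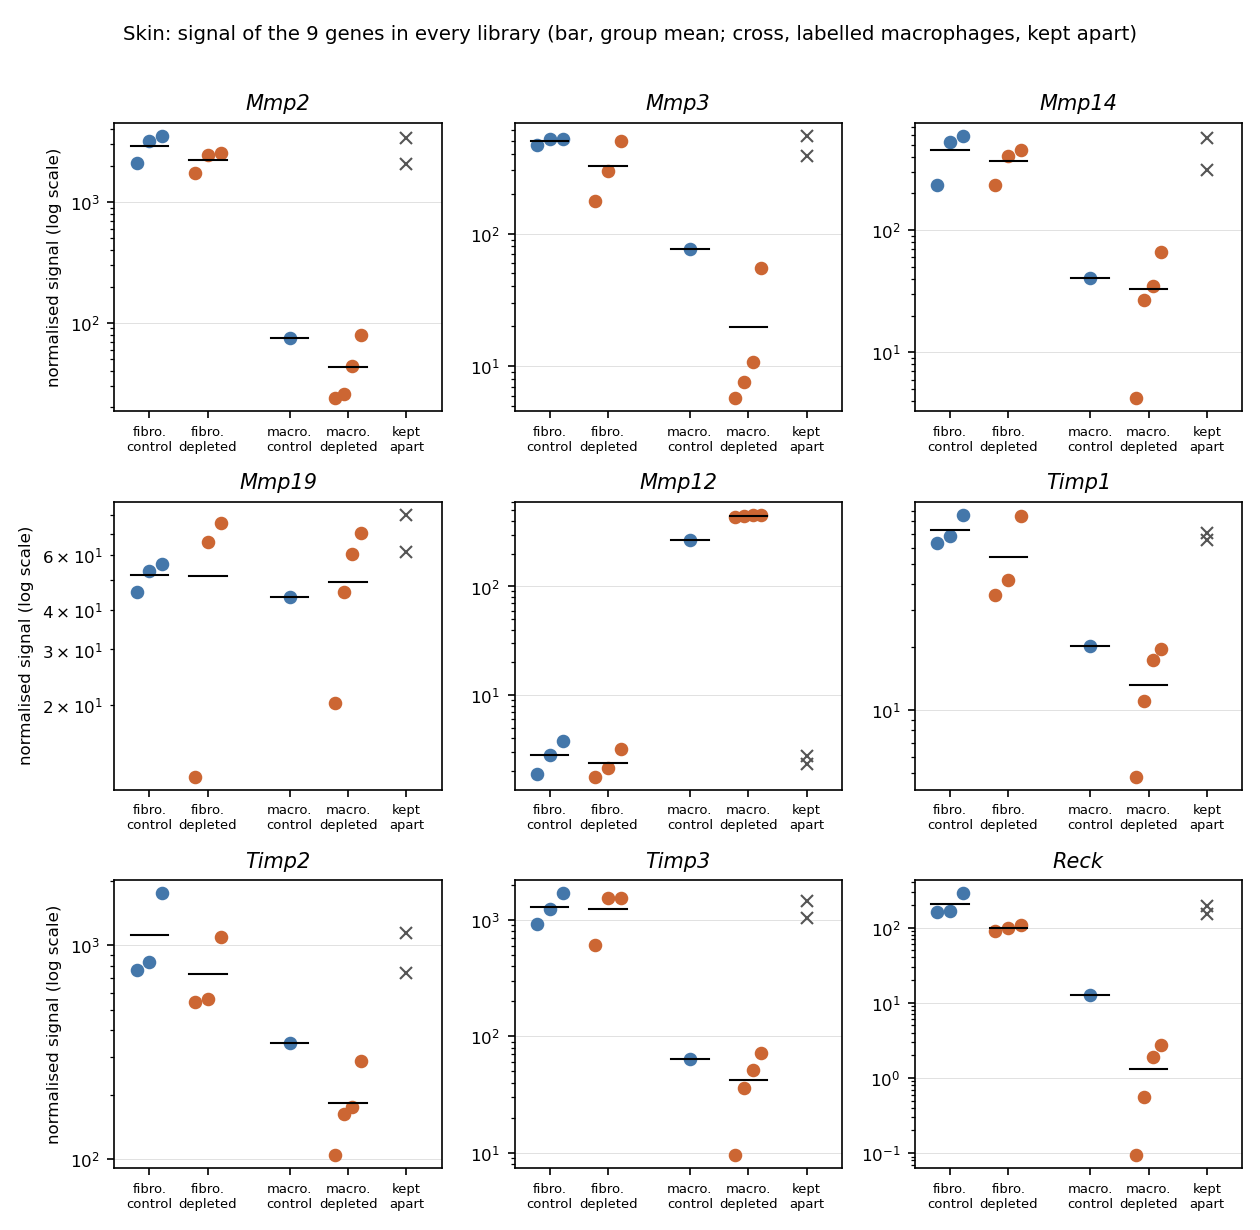
Normalised signal (log scale) of each of the 9 genes in the 13 skin libraries, with control libraries in blue, depleted ones in orange, bars for group means and crosses for the 2 libraries labelled as control macrophages that are kept apart. For the 8 genes that differ between the cell types the crosses lie with the fibroblasts, for instance at 2077 and 3405 for Mmp2 and at 2.75 and 2.31 for Mmp12.

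Mmp3 and Mmp12, which differ between the cell types in opposite directions, lie 76.3 kb apart in a cluster of metalloproteinase genes on chromosome 9. In order along the forward strand the GENCODE M21 annotation lists Mmp13, Mmp12, Mmp1b (on the reverse strand), Mmp3, Mmp1a, Mmp10, Mmp8, Mmp27, Mmp20 and Mmp7. Mmp13, a collagenase gene, had 0 reads in the 6 lung fibroblast libraries and signals of 3.10 to 46.1 in lung macrophages (log2 -2.56 ± 0.53, adjusted p = 0.000278 by limma). Mmp8, the neutrophil collagenase gene, was lower in fibroblasts of lung (log2 -4.10 ± 0.43, adjusted p = 3.38e-09 by limma) and of skin (-3.45 ± 0.81, adjusted p = 0.00666). Skin fibroblasts had 0 reads of Mmp8, and where a group is at 0 reads the fitted log2 value depends on the pseudocount and is no bound. Mmp27 was tested in skin alone and did not pass (2.63 ± 1.06, adjusted p = 0.0894). Among the cluster genes tested, Mmp3 was thus the one called higher in fibroblasts.

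**Figure D3:**
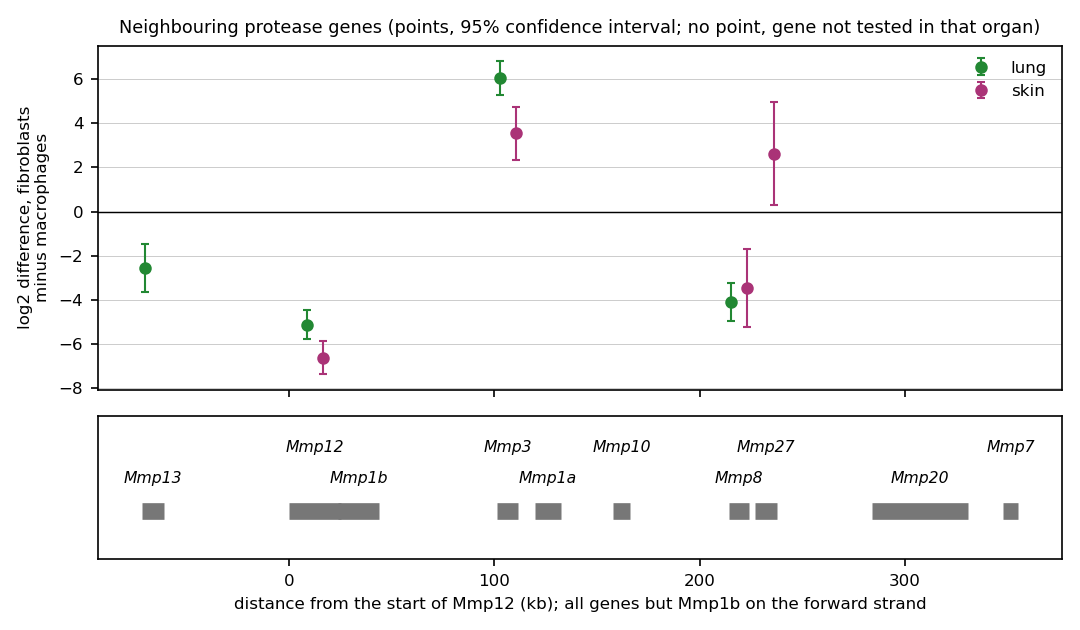
Upper panel: log2 difference of fibroblasts minus macrophages with its 95% confidence interval in lung (green) and skin (magenta) for genes of the chromosome 9 cluster, where a gene without a point was not tested in that organ. Lower panel: the genes drawn to scale by distance from the start of Mmp12 in kb. Mmp3 lies above 0 in both organs, while Mmp12 and Mmp8 lie below 0 in both.

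The starts of Mmp3 and Mmp12 are shown because this pair carries the opposite pattern. The sequences are the 250 bases before the RefSeq start sites on GRCm38.p6, plus strand, 5′ to 3′, for which 7 of the 9 genes had an entry, Mmp2 and Mmp19 having none. The motif searched was TGANTCA, the palindromic site of AP-1 (Fos and Jun proteins), which reads the same on both strands, and matches are in capitals. It was found in 2 of the 7 genes, Mmp3 and Mmp12, and in 6.75% of all 32851 promoters of the table.
Mmp3, chr9:7445572-7445821: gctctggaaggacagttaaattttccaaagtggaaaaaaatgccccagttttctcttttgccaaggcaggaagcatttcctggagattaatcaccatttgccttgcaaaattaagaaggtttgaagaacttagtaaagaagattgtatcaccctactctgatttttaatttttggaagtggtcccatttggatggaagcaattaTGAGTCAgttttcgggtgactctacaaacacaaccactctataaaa
Mmp12, first start, chr9:7344147-7344396: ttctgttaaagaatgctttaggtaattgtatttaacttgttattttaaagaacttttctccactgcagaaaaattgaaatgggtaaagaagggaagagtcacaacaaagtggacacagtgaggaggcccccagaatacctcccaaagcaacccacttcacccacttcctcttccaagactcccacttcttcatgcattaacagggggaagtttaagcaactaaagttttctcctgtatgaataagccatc
Mmp12, second start, chr9:7347124-7347373: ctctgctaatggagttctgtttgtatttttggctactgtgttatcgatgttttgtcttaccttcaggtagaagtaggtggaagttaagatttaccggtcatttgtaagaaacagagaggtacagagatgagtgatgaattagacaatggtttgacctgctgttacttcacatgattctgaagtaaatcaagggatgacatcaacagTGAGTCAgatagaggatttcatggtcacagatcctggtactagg
The match in Mmp3 begins 46 bases before its start site, and TATAAA, found in 12.4% of the promoters on either strand, begins 7 bases before it. In Mmp12 the second start has a match that begins 44 bases before it and the first start has none. GAGGAAG, a core sequence of sites for the myeloid factor PU.1 that was searched on both strands and is present in 10.6% of the promoters, was found in reverse 87 bases before the first Mmp12 start and in no other window of the 7 genes. These matches describe the letters in the windows; binding was not measured.

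Mmp19 encodes a secreted protease of broad substrate range, and it was the gene of the set whose difference between the cell types did not pass in either organ (ENSMUSG00000025355, chr10:128790910-128800824, plus strand). In skin, where it was measured at depth, fibroblasts had 56.2, 53.2 and 45.7 in controls and 75.6, 11.8 and 66.1 in depleted libraries. Skin macrophages had 44.1 in the control and 70.4, 20.3, 45.5 and 60.4 in depleted libraries, a range that overlaps that of the fibroblasts. The log2 difference was 0.02 with a 95% interval of -1.18 to 1.22 (adjusted p = 0.985 by limma), an interval wide enough to hold a doubling in either direction. In lung it rested on 28.2 reads in fibroblasts and 10.8 in macrophages, with a log2 difference of 0.74 and an interval of -0.48 to 1.97 (adjusted p = 0.357 by limma). Lung fibroblasts ranged from 2.73 to 74.1 and lung macrophages from 3.08 to 28.3.

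Among the inhibitors, Timp3, whose product binds the matrix and is known to block ADAM proteases as well, was high in fibroblasts and low in macrophages (ENSMUSG00000020044, chr10:86300372-86349506, plus strand). Its lung signal was 389, 380 and 573 in control and 537, 603 and 525 in depleted fibroblasts, and 6.78 to 9.31 in the 6 macrophage libraries, which held 7 reads in all. The lung log2 difference was 5.71 ± 0.26 (adjusted p = 2.93e-17 by limma), or 59.5-fold between the means. By reads scaled by depth, lung macrophages stood at 1.12% of the fibroblast level. Skin fibroblasts had 1681, 1233 and 913 in controls and 1533, 604 and 1536 in depleted libraries. Skin macrophages had 63.6 in the control and 35.7, 51.6, 72.2 and 9.53 in depleted libraries, 26.9-fold below the fibroblast mean (log2 4.64 ± 0.52, adjusted p = 2.55e-05 by limma). No macrophage library of either organ came near the lowest fibroblast library.

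Reck was also higher in fibroblasts, and its lung macrophage level rested on 4 reads in all (ENSMUSG00000028476, chr4:43875530-43944806, plus strand). With so few reads the lung fold depends on the lowest values of the libraries and cannot be set against that of skin. Lung fibroblasts had 51.9, 26.0 and 90.9 in controls and 98.7, 87.4 and 67.3 in depleted libraries. Lung macrophages had 0 reads in the 3 controls and 2, 1 and 1 reads in the 3 depleted libraries, so the highest macrophage signal was 15.4 and the lowest fibroblast signal, on 4 reads, 26.0. The lung log2 difference was 3.4 ± 0.42 (adjusted p = 9.64e-08 by limma), or 10.5-fold between the means. In skin fibroblasts the signal was 285, 160 and 165 in controls and 109, 98.5 and 90.1 in depleted libraries, against 12.6 in the control macrophages and 0.566, 0.0938, 2.74 and 1.88 in depleted macrophages. The skin log2 difference was 4.72 ± 0.47 (adjusted p = 9.36e-06 by limma), or 42.3-fold between the means.

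Timp1 encodes an inducible secreted inhibitor, and its signal, not divided by its short transcript of 883 bases, was low in both organs (ENSMUSG00000001131, chrX:20870166-20874735, plus strand). Per kb of transcript its mean lay above those of Mmp14, Reck and Mmp19 in lung fibroblasts, and above those of Reck and Mmp19 in skin fibroblasts. Lung fibroblasts had signals of 24.6, 26.0 and 33.9 in controls and 30.6, 33.0 and 53.5 in depleted libraries, or 44 reads in all, and the 6 lung macrophage libraries had 0 reads. The lung level was at least 13.4-fold higher in fibroblasts (adjusted p = 1.06e-06 by limma). Skin fibroblasts had 86.2, 63.0 and 68.3 in controls and 84.8, 35.6 and 42.0 in depleted libraries, and skin macrophages had 20.3 in the control and 19.7, 11, 17.4 and 4.82 in depleted libraries. The skin difference was 4.32-fold between the means (log2 1.89 ± 0.46, adjusted p = 0.00884 by limma), with no overlap of the groups.

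Timp2, whose product takes part in the activation of MMP2 by MMP14, was the inhibitor that both cell types held at a clear level (ENSMUSG00000017466, chr11:118301069-118355740, minus strand). Its lung signal was 479, 373 and 586 in control and 419, 375 and 306 in depleted fibroblasts. Lung macrophages had 147, 148 and 116 in controls and 145, 115 and 203 in depleted libraries, resting on 175 reads. The difference of 2.90-fold between the means had the smallest size of the 8 that passed in lung (log2 1.53 ± 0.20, adjusted p = 3.78e-07 by limma). Skin fibroblasts had 1754, 771 and 836 in controls and 1095, 560 and 544 in depleted libraries, and skin macrophages had 347 in the control and 174, 162, 288 and 104 in depleted libraries. The skin difference was 4.31-fold between the means (log2 1.8 ± 0.35, adjusted p = 0.00202 by limma).

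**Figure D4:**
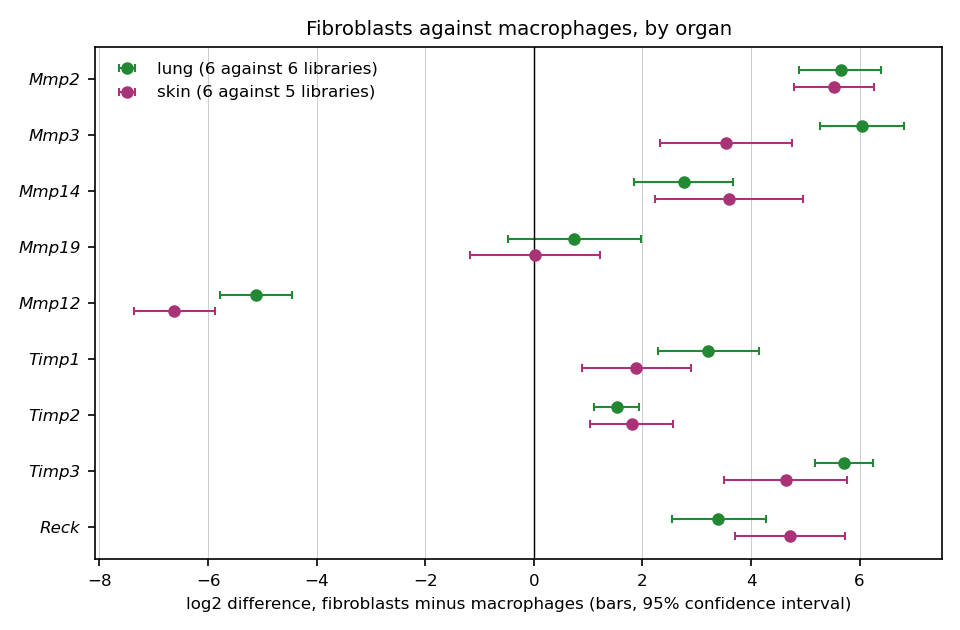
Log2 difference of fibroblasts minus macrophages for each gene in lung (green, 6 against 6 libraries) and skin (magenta, 6 against 5), with bars for the 95% confidence interval. Mmp2 and Timp1 have 0 reads in lung macrophages, so their lung points depend on the pseudocount. Those of Mmp3, Mmp14, Timp3 and Reck rest on 6, 8.06, 7 and 4 macrophage reads and depend on it in part. The intervals of Mmp19 span 0 in both organs, those of Mmp12 lie below 0 (-5.12 and -6.62), and those of the other 7 genes lie above 0.

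The macrophage level of the fibroblast genes was set beside that of the fibroblast markers in the same libraries, both as reads scaled by library depth. Where macrophage reads are few, these percentages are lower than the folds of mean signal would give. In skin macrophages the 16 fibroblast markers stood at a median of 1.54% of their fibroblast level (range 0.935 to 43.9%, the highest being Fn1). Mmp2 stood at 1.73%, Reck at 2.75% and Timp3 at 3.92%. Mmp3 and Mmp14 stood at 7.10% and 9.19%, and Timp1, Timp2 and Mmp19 at 22.7, 24.9 and 88.1%. Timp1 and Timp2 thus lay above 15 of the 16 markers, and Mmp19 above all 16. In lung macrophages the 15 markers measured stood at a median of 2.15% (0.44 to 39.3%), with Mmp3 at 1.10%, Timp3 at 1.12%, Reck at 4.70%, Mmp14 at 11.9%, Timp2 at 34.2% and Mmp19 at 41.7%. Mmp12 in fibroblasts stood at 1.98% of its macrophage level in lung and 0.618% in skin, where the median macrophage marker stood at 1.08 and 0.103%. The part of fibroblast RNA in the macrophage levels was not tested, and in bulk samples fewer cells of a type and less RNA per cell cannot be told apart.

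Levels were compared between genes after dividing the signal by transcript length in kb. In lung fibroblasts Mmp3 led at 255 ± 67.4 per kb (SD, n = 6), above Timp2 (114 ± 26.5) with no overlap of their ranges, and then Timp3 (106 ± 20.0), Mmp2 (61.3 ± 18.7), Timp1 (38.1 ± 11.8), Mmp14 (22.4 ± 7.80), Reck (15.9 ± 6.25), Mmp19 (7.5 ± 7.85) and Mmp12 (2.50 ± 0.973) followed, each overlapping the gene above it. In skin fibroblasts Mmp2 led at 842 ± 217 per kb (SD, n = 6), above Timp3 (265 ± 88.8) with no overlap. Timp2 (250 ± 122), Mmp3 (228 ± 78.9), Mmp14 (157 ± 57.2), Timp1 (71.7 ± 23.9), Reck (34.1 ± 16.4) and Mmp19 (15.1 ± 6.47) followed with overlapping neighbours, and Mmp12 (0.722 ± 0.222) lay apart at the end. The leading protease was therefore Mmp3 in the lung fibroblast libraries and Mmp2 in the skin ones, each order being within its own organ. Macrophages of both organs had the same leading pair, Mmp12 and Timp2, whose ranges overlapped: 98.7 ± 45.3 and 39.3 ± 8.66 per kb in lung (SD, n = 6) and 114 ± 22.2 and 58.0 ± 26.9 in skin (SD, n = 5). The other 7 genes were at 4.29 per kb or less on average in lung macrophages and at 0.805 to 17.4 in skin macrophages.

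The genes whose profile over the libraries was most like each of the 9 were picked by the smallest mean absolute difference of centred log2 values, over 12 libraries in lung and 11 in skin, among genes with a mean signal of at least 20. Libraries of a cell type share its profile, so this likeness is given as a description. For Mmp2 they were Col6a3 (0.23) and Gsn (0.24) in lung, a collagen VI chain and gelsolin, and Lox (0.23) and Igfbp5 (0.29) in skin, the collagen cross-linking enzyme lysyl oxidase and a growth factor binding protein. For Mmp12 they were Cd48 (0.33) and Trem2 (0.35) in lung and Lcp2 (0.18) and H2-DMb2 (0.19) in skin, all genes of immune cells. Timp3 was nearest to Gsn (0.24) and Npnt (0.24) in lung and to Igfbp7 (0.33) and Mrgprf (0.35) in skin. In skin Timp1 was nearest to another of the 9 genes, Timp2 (0.26). The nearest genes of Reck were Omd (0.33) in lung and Fkbp14 (0.43) in skin, of Mmp3 Serpina3n (0.37) and C1qtnf1 (0.33), and of Mmp14 Nfix (0.37) and Cercam (0.38). Mmp19 had the most distant nearest gene of the set in lung, Psip1 at 0.62.

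Depletion of neutrophils was then compared with control within each cell type and organ. None of the 9 genes passed the threshold in any of the 4 comparisons. The share of all genes that passed was 0.00843% in lung fibroblasts (1 gene, and 600 at an unadjusted p under 0.05) and 0.497% in lung macrophages (59 genes, with 0.0674% of all genes higher and 0.430% lower in depleted libraries). It was 0% in skin fibroblasts and in skin macrophages by limma, where 283 and 689 genes had an unadjusted p under 0.05 (2.4 and 5.5%). With so few calls over all genes, 0 of 9 is close to that background, and the intervals below show which changes remain possible.

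In lung fibroblasts 5 of the 9 genes were higher and 4 lower on average in depleted libraries, with a median log2 change of 0.33 beside -0.01 over all genes, and the groups overlapped for every gene, while 4.94% of all genes had depleted values above and 4.26% below all control values. The mean Mmp2 signal was 155 ± 56.1 with and 222 ± 41.3 without depletion (SD, n = 3 each), a log2 change of -0.56 with a 95% interval of -1.13 to 0.01 (adjusted p = 0.969 by limma). Reck averaged 84.5 ± 15.9 and 56.3 ± 32.7 (0.73, interval -0.06 to 1.53). The intervals of Timp3 (0.33, -0.15 to 0.82), Timp2 (-0.37, -0.87 to 0.12) and Mmp3 (-0.23, -0.72 to 0.27) stayed within a doubling in either direction. Those of Timp1 (0.43, -0.62 to 1.48), Mmp14 (-0.24, -1.08 to 0.61) and Mmp19 (0.74, -0.83 to 2.31) did not. Mmp12 rested on 5.01 and 4.02 reads a group.

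Some markers of other cells were higher on average in the depleted lung fibroblast libraries. The 9 markers of alveolar macrophages and dendritic cells measured took 0.0144 to 0.0348% of the signal in controls and 0.0394 to 0.0531% in depleted libraries, with none called. Singly, 5 of them were higher and 4 lower on average, from -1.02 to 2.02 on the log2 scale. Of 12 lung epithelial markers 10 were higher on average, with a median log2 change of 0.98 and summed shares that overlapped, 0.0521 to 0.219% and 0.202 to 0.559%. The 1 gene called over the whole table was among them, the club cell gene Scgb1a1 (1.43 ± 0.27, adjusted p = 0.00671 by limma). The 16 macrophage markers took 0.0281 to 0.0571% and 0.0406 to 0.081%, with 9 of them higher and 7 lower on average. Of the 15 fibroblast markers measured 9 were lower and 6 higher on average, with a median log2 change of -0.04 beside -0.01 over all genes. Without overlap of the groups 5 were lower and 1 higher, beside 4.26% and 4.94% of all genes, and none was called. Their summed share was 0.603 to 0.741% in controls and 0.532 to 0.638% in depleted libraries. The part of these cells in the changes of the 9 genes was not tested.

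In lung macrophages the gene of the set with the clearest difference was Mmp12. The depleted libraries had 618, 382 and 433 and the controls 206, 329 and 169, so the groups did not overlap and the means were 478 ± 124 and 235 ± 83.5 (SD, n = 3 each), a ratio of 2.04. The log2 change was 1.05 ± 0.28 with a 95% interval of 0.49 to 1.60, but at an adjusted p of 0.0741 by limma it did not pass. It stood at rank 69 of 11867 genes by p, just outside the 59 genes called, and its adjusted p ran from 0.0508 to 0.674 over 15 alternative settings, none of which called it. The log2 change was 0.84 to 1.32 over these settings. Reck was the other of 2 genes whose groups did not overlap, both higher in depleted libraries, as 6.21% of all genes were, with 6.02% lower. It had 0 reads in the controls and 4 reads over the depleted libraries (adjusted p = 0.293 by limma). With the controls set to the same floor of 3 reads, the ratio of reads scaled by depth was 1.95. That ratio is no firm bound, as a count of 4 reads is itself uncertain. The mean Timp2 signal was 154 ± 45 with and 137 ± 18.4 without depletion (0.14, interval -0.49 to 0.77). The remaining genes had too few reads for a comparison: from 0 to 0 for Mmp2 and Timp1, 3 to 3 for Mmp3, 6.06 to 2 for Mmp14, 8.77 to 2 for Mmp19 and 4 to 3 for Timp3, from control to depleted.

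Markers of other cells moved in the same lung macrophage libraries. The 11 neutrophil markers measured took 0.762 to 1.62% of the signal in controls and 0.151 to 0.186% in depleted libraries. Among them Mmp9, the gelatinase B gene of neutrophil granules, fell from 175 ± 72.0 to 13.0 ± 6.55 (log2 -3.64 ± 0.49, adjusted p = 3.44e-06 by limma) and Mmp8 from 167 ± 40.1 to 50 ± 19.8 (-1.76 ± 0.37, adjusted p = 0.00643). S100a8 (-2.51) and S100a9 (-2.50) fell with them, while Ly6g averaged 22 ± 5.59 and 29.2 ± 12.2 on 14.2 and 13 reads. Lung epithelial markers took 0.201 to 0.866% in controls and 0.915 to 2.08% in depleted libraries, macrophage markers 2.26 to 3.33% and 3.54 to 4.04%, and markers of alveolar macrophages and dendritic cells 0.529 to 0.799% and 0.559 to 1.03%. Singly, 9 of 16 macrophage markers were higher and 7 lower on average. Of 9 markers of alveolar macrophages and dendritic cells 5 were higher and 4 lower. The 15 fibroblast markers measured took 0.0264 to 0.0322% in controls and 0.0325 to 0.0409% in depleted libraries, with 3 of them (Fbln1, Lum and Pdgfrb) at 0 reads in every control library and 1 (Col6a2) in every depleted one. The part of these shares in the Mmp12 and Reck differences was not tested.

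In skin fibroblasts all 9 genes were lower on average in depleted libraries, with a median log2 change of -0.38, while 48.4% of all genes were lower and their median was 0.03. Reck had 109, 98.5 and 90.1 in depleted and 285, 160 and 165 in control libraries, so the highest depleted library lay below the lowest control. Its means of 99.1 ± 9.32 and 203 ± 70.7 (SD, n = 3 each) differed by a log2 of -0.98 (95% interval -1.66 to -0.29, unadjusted p = 0.00906 by limma), rank 14 of 11780 genes by p, and the adjusted p was 0.955. It was the 1 gene of the 9 whose groups did not overlap, as 4.19% of all genes were on the lower side and 4.28% on the higher. Mmp3 followed at -0.76 (interval -1.52 to 0.01), with depleted library 2, at 495, inside the control range of 465 to 517. Timp2 changed by -0.59 (-1.43 to 0.25), Timp1 by -0.51 (-1.42 to 0.40), Mmp2 by -0.38 (-1.13 to 0.37) and Mmp19 by -0.38 (-1.74 to 0.99). Mmp14 at -0.24 (-1.08 to 0.60), Mmp12 at -0.17 (-2.23 to 1.90) and Timp3 at -0.14 (-1.01 to 0.73) were nearest to 0, and without depleted library 4 the changes of Mmp14, Mmp19 and Timp3 were 0.05, 0.45 and 0.31. That library had the lowest of all 6 values of Mmp2, Mmp3, Mmp19, Timp1 and Timp3.

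The fibroblast markers of these skin libraries were also mostly lower. Of 16, 14 were lower in depleted libraries, with a median log2 change of -0.47 and none called, and their summed share was 8.56, 6.24 and 7.15% in depleted libraries 2, 4 and 5 and 9.14 to 11.9% in controls. All 11 keratinocyte markers measured were higher on average, with a median of 0.99, at a summed share of 0.127, 1.57 and 1.49% in the depleted libraries and 0.282 to 0.424% in controls. The part of these cells in the changes of the 9 genes was not tested.

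In skin macrophages 4 depleted libraries were set against the 1 control library left, which was assumed to vary like the other skin groups, so these differences have no replicate check on the control side. Mmp3 was 76.8 in the control and 5.78 to 55.4 in depleted libraries (log2 -2.47, 95% interval -4.42 to -0.52, adjusted p = 0.838 by limma), and Reck was 12.6 in the control and 0.0938 to 2.74 in depleted libraries (-2.71, -4.34 to -1.08, adjusted p = 0.583). Timp2 (-1.02, -2.25 to 0.21) and Timp1 (-0.74, -2.37 to 0.89) also had the control above all 4 depleted libraries. Mmp12 was the 1 gene with the control, at 269, below all 4 depleted libraries, at 438 to 457 (0.73, -0.47 to 1.94). With 1 control, 24.5% of all genes had it above and 23.8% below all depleted libraries. Mmp2 (-0.94), Timp3 (-0.89), Mmp14 (-0.77) and Mmp19 (0.02) had the control inside the depleted range. The fibroblast markers leaned the same way as the fibroblast genes of the set: 14 of 16 were lower in depleted libraries, with a median of -1.39 and none called, and they took 0.225% of the signal in the control and 0.0931 to 0.171% in depleted libraries. Keratinocyte markers took 0.589% in the control and 0.138 to 0.328% in depleted libraries. Neutrophil markers took 0.011% in the control and 0.00416 to 0.0202% in depleted libraries, where S100a8 was 36.4 against 7.04 to 14.6, S100a9 8.32 against 0.0355 to 1.59, Mmp8 5.32 against 2.10 to 50.9 and Mmp9 23.7 against 30.3 to 102. The part of any of these in the differences of the 9 genes was not tested.

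With all libraries used as labelled, the skin macrophage comparison looked entirely different. It then called 985 genes and 7 of the 9, Reck (-5.16, adjusted p = 0.00260 by limma), Mmp2 (-4.36, 0.0101), Mmp3 (-4.17, 0.00451), Timp3 (-3.72, 0.0163), Mmp14 (-3.0, 0.0364) and Timp2 (-1.96, 0.0159) lower and Mmp12 (4.90, 0.0149) higher in depleted libraries. The 2 libraries kept apart supply the control level in that fit, with Mmp2 at 2077 and 3405, Reck at 193 and 153, and Mmp12 at 2.75 and 2.31. Each of these values lies with those of the fibroblast libraries.

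**Figure D5:**
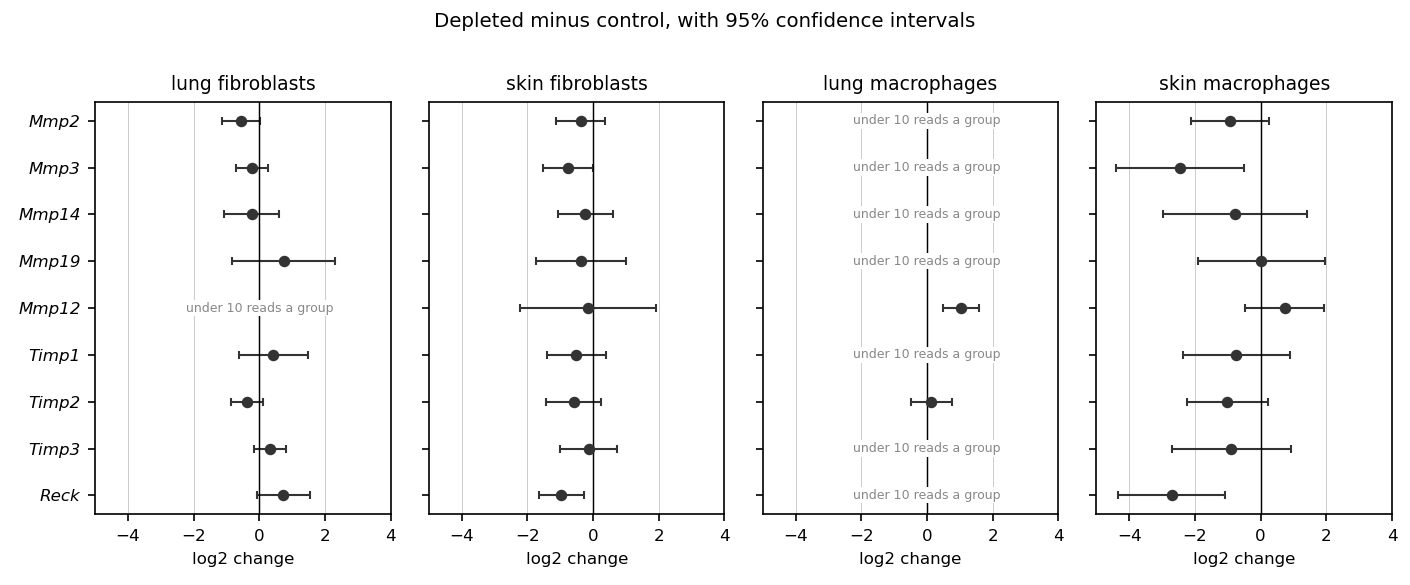
Log2 change of depleted minus control libraries for each gene in the 4 cell populations, with bars for the 95% confidence interval. Genes with under 10 reads in both groups have no point. Mmp12 in lung macrophages (1.05), Reck in skin fibroblasts (-0.98), and Reck (-2.71) and Mmp3 (-2.47) in skin macrophages are the points whose intervals leave out 0, and none of them passed after adjustment.

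An interaction term tested whether the effect of depletion differed between fibroblasts and macrophages within an organ. None of the 9 genes passed in lung, where 0.0169% of all genes did (2 genes), or in skin, where 0% did by limma (524 genes at an unadjusted p under 0.05). The lowest p of the set was that of Reck in skin, whose fibroblast effect lay 1.73 above its macrophage effect on the log2 scale (95% interval -0.29 to 3.75, adjusted p = 0.963). For Mmp12 in lung the fibroblast effect lay 0.71 below the macrophage effect (-0.71, interval -2.04 to 0.62, adjusted p = 0.930).

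Other extracellular proteases of the same pathways were described from lists. The ADAMTS proteases, secreted enzymes that cut proteoglycans and process collagens, followed the fibroblast pattern, with 7 of 9 tested called higher in fibroblasts of lung and 8 of 10 in skin, and 0 lower. In lung they were led by Adamts15 (4.78), Adamts8 (3.31), Adamts5 (2.89) and Adamts1 (2.84), and in skin by Adamts2 (5.92), Adamts1 (4.16), Adamts5 (4.61) and Adamts12 (3.37), all as log2 differences. Of 10 membrane-bound ADAM proteases tested, 0 were called higher and 3 lower in lung fibroblasts (Adam8 -3.63, Adam10 -1.25, Adam19 -1.91), where 18.1% of all genes were higher and 18.5% lower. In skin 2 were higher and 2 lower (Adam33 3.63 and Adam12 2.29, Adam8 -4.37 and Adam15 -1.63), where 14.8% of all genes were higher and 13.0% lower, so these few calls are near the shares of all genes. Among other metalloproteinases, Mmp11 was higher in fibroblasts of both organs (1.74 and 4.39), Mmp23 (5.20) and Mmp16 (3.74) were higher in skin fibroblasts, and Mmp9 was lower in fibroblasts of both (-3.78, with 0 reads in lung fibroblasts, and -4.86).

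The activators and the plasmin system, which switches on metalloproteinase precursors, held genes called in both directions. Of 12 tested, 5 were higher and 3 lower in lung fibroblasts, where 18.1% of all genes were higher and 18.5% lower. The 3 lower in lung are thus near the share of all genes. In skin fibroblasts 7 were higher and 3 lower, beside 14.8% and 13.0% of all genes. Serpine2, an inhibitor of plasminogen activators and thrombin, was higher in fibroblasts of lung (5.29) and skin (4.2), as was Lrp1, the endocytic receptor that clears protease complexes, in lung (2.01). Plat, tissue plasminogen activator, was higher in skin fibroblasts (6.01). Plaur, the urokinase receptor, was lower in fibroblasts of both organs (-5.07 and -2.85), as was Cd44 (-3.05 and -2.49), a hyaluronan receptor. In the 4 comparisons of depleted with control libraries, Mmp8 and Mmp9 in lung macrophages were the genes called from these lists, none of the ADAM, ADAMTS or activator genes passing by limma.

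The annotation limits several of these values, since 6 of the 9 genes overlap another gene. Mmp12 overlaps the end of Mmp1b by 1261 bases, of which 157 are exonic in both, and Mmp19 shares 789 exonic bases with Tmem198b and 212 with the antisense gene Gm47093. Timp3 lies within Syn3, with 1733 shared exonic bases, and Timp1 within an intron of Syn1. All 5 of these partners are on the opposite strand, while Timp2 and Reck hold Cep295nl and the small RNA gene Gm27265 on their own strand with no shared exonic base. Whether the authors' counting used strand is not given in the sources used here, so reads from shared exonic bases cannot be told apart from reads of the partner. Of these partners Tmem198b was listed in both deposited tables and Syn3 in that of lung.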

How the data were processed

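RNA-seq of 25 libraries of sorted cells was used, 12 from lung and 13 from skin. Per the labels' protocols, libraries were made with a single-cell kit and read from 1 end. CASAVA 1.8, cutadapt 1.7.1, RSEM 1.7.1, limma 3.46 and the mm10 build are named in the submitters' processing notes, without role or order. The authors deposited 1 table of normalised signal per organ, in which a value equals the estimated reads plus 0.5, times a constant for the library. Reads recovered from it were whole, within 0.01, for 70.0 to 82.2% of genes in the lung libraries and 27.4 to 58.0% in those of skin, so count models were not used.

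Groups follow the genotype and cell type labels. Differences were fitted with limma 3.58.1 in R 4.3.3 (two-sided, with a variance trend) on log2 of the signal plus 1 part in 1000000 of the mean library total (1.04 in lung, 1.00 in skin), a scale that understates changes of low genes. Genes needed at least 1 part in 1000000 in as many libraries as the smaller group holds, at least 3. P-values were adjusted by Benjamini-Hochberg over all genes, with a threshold of 0.05. Comparisons of 2 groups of 3 used those groups, and the others a model of the organ's 4 groups. Folds are ratios of mean signal, in which a library at 0 reads keeps its lowest value. Folds given as at least, and levels of 1 cell type as a percent of the other, instead use reads summed over the group and scaled by library depth, without that offset. Per kb values use the longest CCDS transcript of GENCODE M21 (GRCm38). Symbols were matched for 11829 lung and 12641 skin genes, with 38 and 20 unmatched.

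All 9 genes are named in every comparison, as are up to 4 called genes with the lowest p from each list, and 5 neutrophil genes. Of the 2 genes most like each of the 9 in an organ, some are named, as a description. Further genes of the chromosome 9 cluster were added after their values were seen. The genes and lists were chosen with earlier results of these data known. Alternatives covered pseudocount, filter, scaling, variance trend, model, replicate block, the 2 libraries kept apart and leaving out each library. The fits were tested on simulated data. No test between organs was made.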

Additional observations from a re-analysis of the deposited data

Results flagged for a closer look

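Mmp3 in skin depleted macrophages had 1 library apart from the others, replicate 1 at 55.4, where the median of the other 3 was 7.59. Its gap to the next library took 0.898 of the range of the group. This was 1 of 9 groups tested, and chance flags about 1 in 20. The same library had the lowest Mmp14 of its group, at 4.25. It was also the shallowest skin library, at 6553115 estimated reads. In it 22.2% of genes were at 0 reads, against 4.49 to 7.39% in the other depleted skin macrophage libraries. The part of depth in these values was not tested.

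The fitted Reck values in macrophages had opposite signs in the 2 organs, with a log2 value of 1.88 in lung and -2.71 in skin, and neither passed (adjusted p = 0.293 and 0.583 by limma). The lung value rests on 4 reads against 0 in the controls and depends on the pseudocount, and the skin value rests on 1 control library. The groups did not overlap in either organ, as 6.21% of all genes did not on the higher side in lung and 24.5% on the lower side in skin. The difference between the organs was not tested.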

How the results depend on the processing

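The 8 genes called between the cell types were called in all 20 alternatives in lung and all 18 in skin, the setting with all libraries as labelled not counted, and Mmp19 in none. No depletion change of the 9 genes was called in any alternative but the use of all libraries as labelled in skin macrophages, where the values stand in the report. Numbers of genes called over the whole tables moved more. In lung fibroblasts 1 gene became 0 with a filter 10 times as strict, quantile normalisation, no variance trend or the 4-group model. In lung macrophages 59 became 38 with a pseudocount 10 times as large, 27 with quantile normalisation, 0 without the variance trend and 18 with the 4-group model. In skin macrophages 0 became 3 without a further pseudocount and 985 with all libraries as labelled, where Mmp2 stood at -4.36, Mmp3 at -4.17, Mmp12 at 4.90, Mmp14 at -3.0, Timp2 at -1.96, Timp3 at -3.72 and Reck at -5.16. In skin, 3340 genes called between the cell types became 1714 with all libraries as labelled. For the interactions, 2 in lung became 1 without a further pseudocount or with quantile normalisation, 12 with the larger pseudocount and 0 without the trend, and 0 in skin became 1 without a further pseudocount.

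The replicate number as a block gave 4 genes in lung fibroblasts, 84 in skin fibroblasts and 5567 between the skin cell types. Deviations of libraries with the same number correlated at -0.05 to 0.14. The labels do not say whether such libraries share an animal or a sorting day, and with groups this small these correlations cannot decide it. No call of the 9 genes changed under the block.

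Signs turned for Mmp19 in skin macrophages (-0.01 with quantile normalisation, -0.18 with the replicate block, -0.42 as labelled), in skin between the cell types (-0.20 as labelled) and in the skin interaction (0.04 as labelled), and for Timp1 in the lung interaction (-0.05 without a further pseudocount).

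Leaving out each library gave 0 to 7 genes called in lung fibroblasts (7 without depleted library 2), 11 to 70 in lung macrophages (11 without control library 2), 0 to 16 in skin fibroblasts (16 without depleted library 2) and 0 to 1 in skin macrophages. Between the cell types it gave 4006 to 4159 in lung and 2836 to 3523 in skin, and for the interactions 1 to 6 and 0 to 0. Signs turned in lung fibroblasts for Mmp3 (-0.37 to 0.04), Mmp12 (-0.20 to 0.75), Mmp14 (-0.63 to 0.26) and Mmp19 (-0.16 to 1.57), and in lung macrophages for Mmp3 (-0.68 to 0.61) and Timp2 (-0.08 to 0.33). They turned in skin fibroblasts for Mmp12 (-0.36 to 0.01), Mmp14 (-0.66 to 0.05), Mmp19 (-0.84 to 0.45) and Timp3 (-0.36 to 0.31), and for Mmp19 in skin macrophages (-0.20 to 0.39) and between the skin cell types (-0.21 to 0.44). In the interactions they turned for Mmp3 (-0.84 to 0.45) and Timp1 (-0.15 to 0.26) in lung and for Mmp14 (-0.21 to 1.01), Mmp19 (-0.86 to 0.43) and Timp1 (-0.14 to 0.48) in skin. Without the lone skin control macrophage library no fit was possible. The cause of these shifts was not tested. In lung, depth limits the weak genes: 7 of the 9 had under 10 reads in each macrophage group.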
